A study of Homo sapiens with 16 samples.

Results

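The 32 genes described here encode the enzymes of cholesterol and fatty acid synthesis and the proteins that control their transcription. They were chosen by name and function, with no measured value in the rule, out of 60666 genes in the tables. All 32 were found by symbol and Ensembl identifier, and all 32 passed the filter on low counts. They fall into 5 roles: sterol sensing and SREBP control (4 genes), mevalonate and isoprenoid steps (8), squalene to cholesterol steps (11), fatty acid synthesis, elongation and desaturation (7), and sterol transfer and glycerolipid synthesis (2).

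RNA from U2OS, an established human osteosarcoma line, was depleted of ribosomal RNA and sequenced. Each stable line carried either the empty plko.puro vector or short hairpin RNAs against PIP4K2A, against PIP4K2B, or against both, and all were kept in high glucose medium with 10% serum and puromycin. PIP4K2A and PIP4K2B are kinases that convert phosphatidylinositol 5-phosphate to phosphatidylinositol 4,5-bisphosphate. Each of the 4 lines was left untreated, or given 30 J/m2 of UV-C and collected 6 h later, in 2 libraries per group. The labels do not say how many hairpins or clones stand behind a line, nor whether the 2 libraries of a group stem from separate cultures. The p-values therefore cover only how far these libraries differ, which may be technical.

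The 15 libraries used held 28002912 to 39873512 counts. The first library of the untreated empty vector held 1278298, with 14.6% mitochondrial counts against 2.2 to 3.43% in the others, and its log2 CPM correlated with theirs at 0.457 to 0.528 across genes. It was set aside, so the untreated vector was a single library, and every comparison with it takes its spread from the other groups. With that library included, the biological coefficient of variation went from 11.3% to 41.9% and no gene of the 32 was called in any of the 17 comparisons. Levels are given as normalised CPM, the counts of a gene relative to its library after scaling by the trimmed mean of M values (TMM). PIP4K2A was at 57.0 in the untreated vector, at 13.9 to 15.8 in the untreated PIP4K2A line and at 20.3 to 20.5 in the untreated double line. PIP4K2B was at 97.0 in the untreated vector, at 21.9 to 24.6 in the untreated PIP4K2B line and at 15.3 to 17.3 in the untreated double line, so both targets were reduced in the lines labelled for them. Of 8 osteoblast lineage markers, RUNX2, ALPL, COL1A1 and SPARC reached a level of 1 TPM (transcript abundance scaled to the library), with summed levels of 820.8 to 1371 TPM untreated and 595 to 977.7 after UV. None of 8 blood cell markers (summed 0.37 to 1.33 TPM) or 5 adipocyte markers (0.06 to 0.3) did, while 7 of 10 epithelial markers did untreated (summed 137.7 to 255.5 TPM) and 6 after UV (119.9 to 432.6), and SERPINA1 alone did among 5 hepatocyte markers (summed 33.8 to 175.5).

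Cells make cholesterol from acetyl-CoA by way of mevalonate, farnesyl pyrophosphate, squalene and lanosterol, and make fatty acids from the same precursor by way of malonyl-CoA. The SREBP transcription factors, encoded by SREBF1 and SREBF2, are held in the endoplasmic reticulum by SCAP together with INSIG proteins while sterol is plentiful. When sterol falls, SCAP escorts them to the Golgi, where they are cut, and the released part activates most of the genes described here, INSIG1 among them.

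Upstream sequences were taken from RefSeq (GRCh38.p14), which held 41 promoters of 28 of the 32 genes, none of them for ACAT2, FDFT1, SQLE or FASN. The 5 stretches below end at the base before the transcription start and are shown because these genes carry the comparisons that follow: INSIG1 and SREBF2 for the sterol control, SCD for the fatty acid genes, HMGCS1 and LSS for the sterol pathway. They lie at chr7:155297628-155297775 (INSIG1, plus strand), chr22:41832929-41833078 (SREBF2, plus), chr10:100346983-100347123 (SCD, plus), chr5:43313513-43313662 (HMGCS1, minus) and chr21:46228825-46228974 (LSS, minus). Each is written 5′ to 3′ on the gene's strand, and capitals mark the letters CACNCCAC (the core of the sterol regulatory element) or CCAAT (the binding motif of NF-Y) on either strand.
INSIG1: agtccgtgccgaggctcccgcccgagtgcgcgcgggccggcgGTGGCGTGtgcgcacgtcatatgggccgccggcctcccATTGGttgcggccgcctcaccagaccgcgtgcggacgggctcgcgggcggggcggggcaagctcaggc
SREBF2: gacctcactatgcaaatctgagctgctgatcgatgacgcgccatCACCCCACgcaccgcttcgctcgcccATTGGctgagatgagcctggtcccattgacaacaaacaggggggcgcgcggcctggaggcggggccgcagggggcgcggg
SCD: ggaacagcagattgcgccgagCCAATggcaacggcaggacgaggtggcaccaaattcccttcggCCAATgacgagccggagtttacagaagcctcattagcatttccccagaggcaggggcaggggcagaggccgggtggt
HMGCS1: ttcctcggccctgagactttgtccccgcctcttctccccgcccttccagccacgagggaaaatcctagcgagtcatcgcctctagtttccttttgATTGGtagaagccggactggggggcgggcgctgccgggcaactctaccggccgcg
LSS: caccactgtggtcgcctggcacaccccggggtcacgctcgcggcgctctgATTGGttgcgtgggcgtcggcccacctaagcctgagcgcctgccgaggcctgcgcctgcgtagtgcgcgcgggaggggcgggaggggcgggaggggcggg
Over the 300 bases around each RefSeq start, CCAAT was present in 25 of the 41 promoters (61%), against 34.6% of 35116 promoters in all. GGGCGG, the GC box bound by Sp1, was present in 35 (85.4%) against 45%. The core CACNCCAC was present in 7 (17.1%) against 5.87%, in INSIG1, IDI1, SCD, ACACA, SREBF2 and both promoters of SC5D. The longer form TCACNCCAC contains that core and was present in 1 (2.44%), that of SREBF2, against 1.13%. These are matches of letters, and promoters of 1 gene can overlap. The core in SCD, at -114 to -107 from its RefSeq start, runs past the end of the stretch shown and is unmarked there.

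Compared per transcript length, in TPM, the fatty acid genes held all of the first 5 places. Over the 7 untreated libraries FADS2, the delta-6 desaturase, averaged 123 TPM (range 73.6 to 159), followed by fatty acid synthase FASN at 96.5 (66.7 to 113), SCD, the stearoyl-CoA desaturase that makes monounsaturated fatty acids, at 92.0 (60.5 to 136), and ATP citrate lyase ACLY at 87.1 (79.6 to 95.5). The ranges of these neighbours overlap, so their order is not separated by the spread over lines. FADS1, the delta-5 desaturase, and squalene synthase FDFT1 were next, at 78.9 and 76.8 TPM. Lowest were phosphomevalonate kinase PMVK (4.11 TPM, range 2.92 to 5.59) and the sterol reductase TM7SF2 (2.95, range 2.38 to 4.26).

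The first question was how the pathway changed after UV in each line. In all 4 lines 3 genes fell: INSIG1, SQLE and HMGCS1. In these bulk libraries fewer cells of a kind and less RNA per cell cannot be told apart. In all 4 lines 5 genes rose against the TMM scale, which centres the median gene: ACAT2, FDFT1, SCD, FADS1 and FADS2, and each of these had a change below 0 in every line when libraries were scaled to 79 ribosomal protein genes. The 4 comparisons share no library. In the empty vector 5 of the 32 were higher and 4 lower on this scale, where 8.67% and 9.82% of all tested genes were (18.5% together). In the PIP4K2A line 9 were higher and 5 lower, beside 16.6% and 14% of all genes (30.6%). In the PIP4K2B line 12 and 3 were, beside 17.5% and 15.4% (32.9%), and in the double line 9 and 4, beside 19.1% and 16.1% (35.2%). The members' median log2 change lay between 0.12 and 0.19, against 0 to 0.02 for all genes, and their share called was 28.1% in the vector and otherwise 40.6 to 46.9%.

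The direction of the rises depended on the scale. The median log2 change of all genes after UV was 0 to 0.022 on the TMM scale, -0.23 to -0.303 when libraries were scaled to their totals, and -0.697 to -0.903 when they were scaled to ribosomal protein genes. The members' higher and lower calls then became 0 and 7, 2 and 8, 1 and 9, and 1 and 9 with library totals (vector, PIP4K2A, PIP4K2B, double), and 0 and 21, 0 and 28, 0 and 30, and 0 and 28 with ribosomal protein genes. Over all genes in the vector, the 1959 higher and 2219 lower calls became 584 and 4290 with library totals (21.6% called), and 151 and 10876 with ribosomal protein genes (48.8%). In the PIP4K2A, PIP4K2B and double lines library totals gave 1382 and 5631, 1491 and 6799, and 1276 and 6763 (31%, 36.7% and 35.6% of all genes). Ribosomal protein genes gave 196 and 14399, 127 and 15180, and 136 and 14725 (64.6%, 67.7% and 65.8%). Every one of the 4, 5, 3 and 4 falls was called under all of these scalings. Library totals and ribosomal protein genes shift the UV changes downwards, so falls could hardly be lost there. Relative log expression (RLE) size factors, which left the median of all genes at -0.015 to 0.013, also kept each fall. Of the 5, 9, 12 and 9 rises, 1 (PMVK in the PIP4K2A line) kept its direction with ribosomal protein genes, and 1 (FDFT1 in the PIP4K2B line) lost it with library totals. PMVK was at 7.844 and 4.885 normalised CPM in the PIP4K2A line after UV. Its TMM call there was lost without untreated replicate 1 or UV replicate 1.

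INSIG1 (ENSG00000186480, chr7:155297776-155310235, plus strand), the membrane protein that retains SCAP and SREBP, was at 44.3 normalised CPM in the untreated vector and at 27.0 and 27.4 after UV. In the PIP4K2A line it was at 25.0 and 26.7 untreated and at 10.2 and 14.1 after UV. In the PIP4K2B line it was at 20.9 and 19.9, then 12.6 and 12.8. In the double line it was at 51.1 and 51.2, then 27.9 and 28.3. Within each line every UV library was below every untreated library. The changes were -0.70 (SE 0.141, adjusted p = 0.00456), -1.08 (adjusted p = 6.35e-05), -0.68 (adjusted p = 0.00122) and -0.86 (adjusted p = 0.000163), a fall of 1.6-fold to 2.12-fold. SREBF1 fell in the PIP4K2A line by 0.37 (adjusted p = 0.0386) and was not called in the others. SREBF2 rose in the PIP4K2B and double lines by 0.42 and 0.34 and SCAP, the SREBP escort, by 0.48 and 0.44, rises that were below 0 for SCAP with ribosomal protein scaling (-0.43 and -0.44), as were those of SREBF2.

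Among the mevalonate genes, HMGCS1 (chr5:43289395-43313512, minus strand), which makes HMG-CoA, was at 124.6 normalised CPM in the untreated vector and at 98.6 and 99.2 after UV. It went from 103.6 and 98.2 to 80.3 and 76.9 in the PIP4K2A line, from 129.7 and 118.2 to 90.5 and 98.2 in the PIP4K2B line, and from 94.3 and 98.6 to 66.3 and 64.6 in the double line. No UV library reached an untreated library of its line, and the changes were -0.33, -0.36, -0.39 and -0.56. Mevalonate kinase MVK fell in the vector (-0.55) and in the PIP4K2A line (-0.67), and its values in the other 2 lines were -0.06 and -0.19. ACAT2 (chr6:159760328-159779055, plus strand), the cytosolic acetoacetyl-CoA thiolase, was at 40.0 and then 56.2 and 59.5 in the vector, at 40.8 and 38.7 and then 62.2 and 62.0 in the PIP4K2A line, at 35.8 and 35.6 and then 51.2 and 48.6 in the PIP4K2B line, and at 25.6 and 25.1 and then 41.2 and 39.2 in the double line. On the TMM scale its changes of 0.53, 0.64, 0.48 and 0.66 were rises, and they became -0.19, -0.16, -0.43 and -0.21 with ribosomal protein genes. ACAT2 overlaps SOD2 and TCP1 on the opposite strand, so its counts rest on the strand setting, which is not given in the sources used here. Farnesyl pyrophosphate synthase FDPS rose by 0.77, 0.77 and 0.64 in the 3 knockdown lines and PMVK by 0.94 and 0.78 in the single lines, and all but PMVK in the PIP4K2A line were below 0 with ribosomal protein genes. FDPS has 8 annotated pseudogenes that could share its reads.

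Of the 11 genes from squalene to cholesterol, SQLE, the squalene epoxidase that catalyses the first oxygen-dependent step, fell in every line. Its levels were 121.1 to 191.7 normalised CPM over the 7 untreated libraries and 71.5 to 125.8 over the 8 UV libraries, and within a line the UV libraries were always lower. The changes were -0.64, -0.50, -0.82 and -0.77, or 1.41-fold to 1.77-fold down. FDFT1, which joins farnesyl units into squalene, went the other way on the TMM scale (0.32, 0.32, 0.26 and 0.43) but not with ribosomal protein genes (-0.40, -0.47, -0.64 and -0.45). It was at 154.3 and then 188.1 and 198.2 in the vector, at 122.3 and 125.6 and then 150 and 160.1 in the PIP4K2A line, at 122.6 and 125.7 and then 145.3 and 152.8 in the PIP4K2B line, and at 138.8 and 135.9 and then 186.6 and 183.2 in the double line. The other calls were rises on the TMM scale that were below 0 with ribosomal protein genes: the sterol isomerase EBP in the PIP4K2B and double lines (0.43 and 0.61), DHCR7, which makes cholesterol from 7-dehydrocholesterol, in the PIP4K2B line (0.44), and lanosterol demethylase CYP51A1 in the PIP4K2A line (0.37). LSS, TM7SF2, MSMO1, NSDHL, HSD17B7 and SC5D were called in no line.

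Of the 7 fatty acid genes, SCD, FADS1 and FADS2 rose in each line on the TMM scale, and all 3 were below 0 in each line with ribosomal protein genes. SCD (ENSG00000099194, chr10:100347124-100364834, plus strand) was at 919 normalised CPM and then 1240 and 1230 in the vector. It was at 510.3 and 513.6 and then 643.6 and 680.3 in the PIP4K2A line, at 470.1 and 442.2 and then 598.8 and 611.4 in the PIP4K2B line, and at 667.2 and 686.1 and then 908.6 and 899.3 in the double line. Its changes of 0.43, 0.37, 0.41 and 0.42 lay within 1 standard error of one another. FADS1 changed by 0.47, 0.47, 0.33 and 0.42 and FADS2 by 0.38, 0.35, 0.54 and 0.40 on the same scale, against -0.26 to -0.57 for both with ribosomal protein genes. These 2 genes overlap on opposite strands of chromosome 11. Fatty acid synthase was called in the PIP4K2B line (0.33) and acetyl-CoA carboxylase ACACA in the PIP4K2A line (0.34), both below 0 with ribosomal protein genes, and the elongase ELOVL6 fell in the double line (-0.30), while ACLY, the sterol carrier STARD4 and the phosphatidate phosphatase LPIN1 were called in none.

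**Figure D1:**
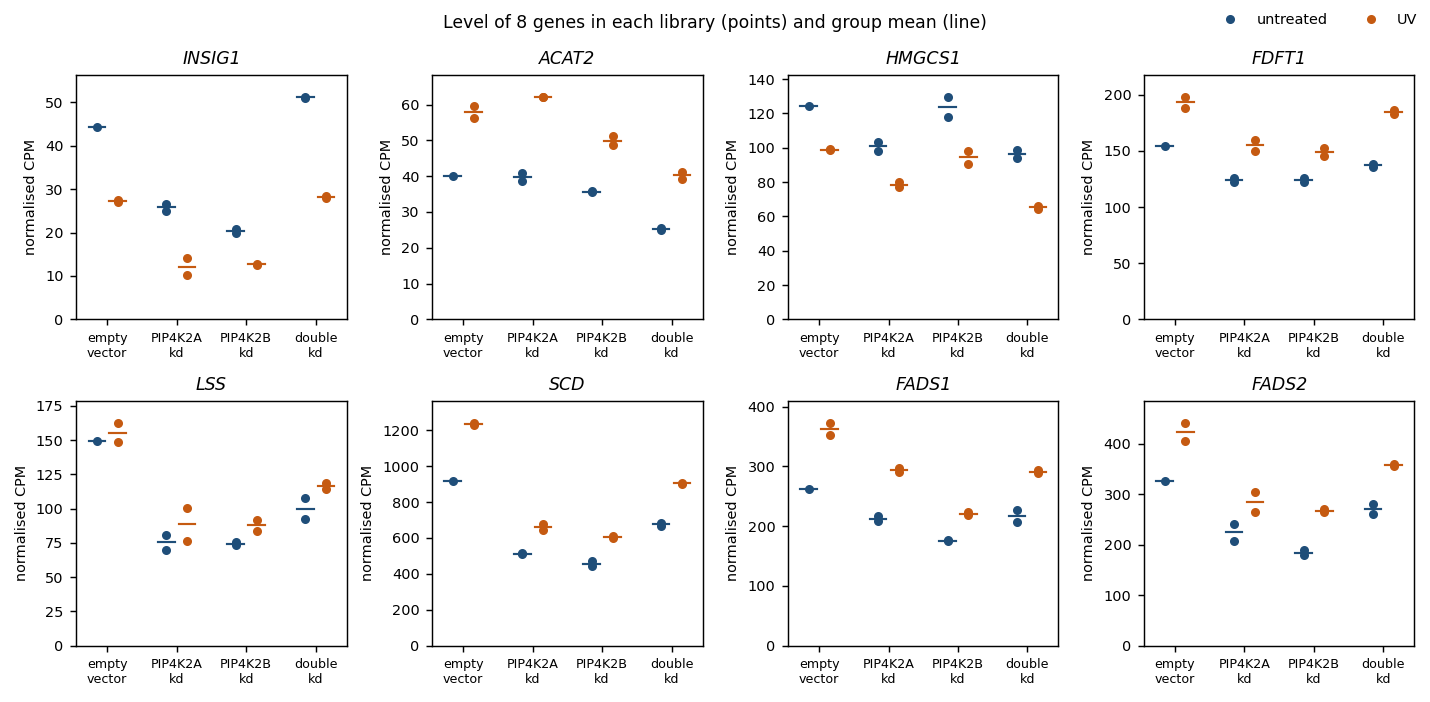
Normalised CPM (y axis, from 0) of 8 genes in each library by line (x axis; kd, knockdown), untreated in blue and after UV in orange; points are libraries and lines are group means, and the untreated vector has 1 library. INSIG1 and HMGCS1 are lower after UV in every line, SCD and INSIG1 are lower in both single knockdowns than in the vector, and INSIG1 in the double line lies at or above the vector; the orange points above blue for ACAT2, FDFT1, SCD, FADS1 and FADS2 hold on this TMM scale and turn below 0 with ribosomal protein gene scaling.

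Leaving out 1 library at a time changed part of these counts. In the vector the 9 calls became 5 without UV replicate 1 and 6 without UV replicate 2, with ACAT2, SCD, FADS1, INSIG1 and SQLE called in both. In the PIP4K2B line the 15 became 9 without UV replicate 1, and 10 without untreated replicate 2. Lost in at least 1 such fit were SREBF1, PMVK, CYP51A1, ACACA and FADS2 in the PIP4K2A line. In the double line they were SREBF2, FDPS, FADS2 and ELOVL6. In the PIP4K2B line they were SREBF2, PMVK, FDFT1, EBP, DHCR7 and FASN, with FDFT1 lost whichever library was left out. The calls of FDFT1 and FADS2 in the vector were also lost whichever UV replicate was left out. INSIG1 and SQLE were called in all 4 lines whichever library was left out, and HMGCS1 in the 3 knockdown lines.

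**Figure D2:**
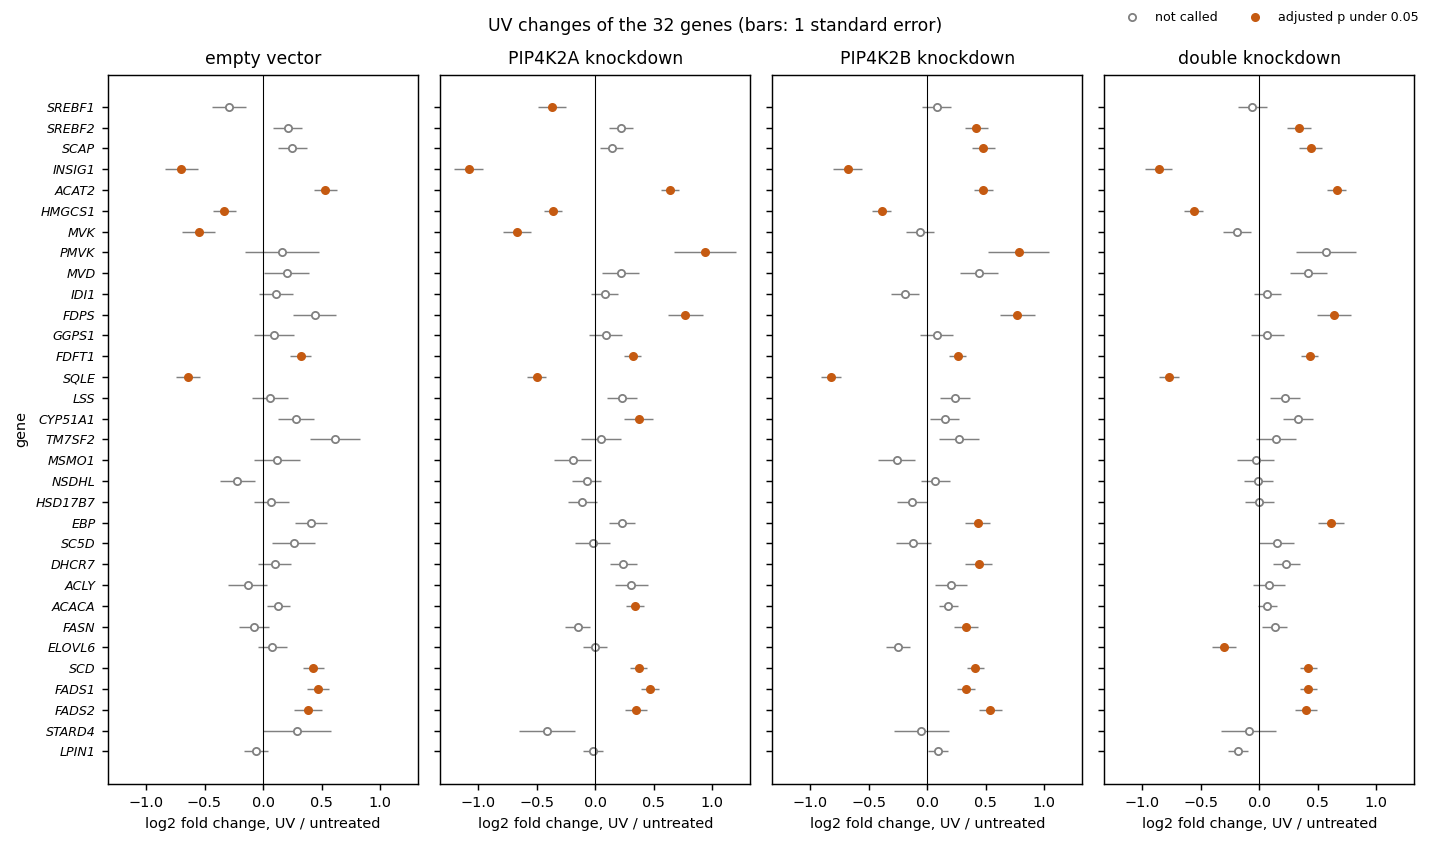
Log2 fold change, UV over untreated (x axis), of the 32 genes (y axis, ordered by role) in the 4 lines, with bars of 1 standard error; filled points have an adjusted p under 0.05. INSIG1, HMGCS1 and SQLE are filled and below 0 in all 4 panels; the filled points above 0, among them SCD, FADS1 and FADS2, all but 1 (PMVK in the PIP4K2A line) turn below 0 with ribosomal protein gene scaling.

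The second question was how each knockdown line differed from the vector without UV. No gene of the 32 was called higher in any knockdown line, where 3.71%, 5.26% and 3.24% of all genes were (PIP4K2A, PIP4K2B, double). Lower were 9 in the PIP4K2A line, 15 in the PIP4K2B line and 5 in the double line, against 4.13%, 4.99% and 2.96% of all genes called lower (7.84%, 10.2% and 6.2% called in either direction). The members' median was -0.32, -0.36 and -0.15, where that of all genes was within 0.01 of 0, and 26, 28 and 24 of the 32 had values below 0. The 3 comparisons share the single vector library, so they are not independent of one another. Every one of these calls kept its sign under the other scalings, but with ribosomal protein genes, which put the median of all genes at 0.318, 0.155 and 0.263, 2 of 9, 9 of 15 and 0 of 5 calls were left. Over all genes the higher and lower calls then went from 838 and 933 to 2333 and 300 in the PIP4K2A line, from 1188 and 1128 to 1300 and 541 in the PIP4K2B line, and from 732 and 669 to 1766 and 220 in the double line.

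In the sterol control group, INSIG1 fell by 0.78 in the PIP4K2A line (SE 0.141, adjusted p = 0.00513) and by 1.12 in the PIP4K2B line (adjusted p = 0.000328). In the double line its 51.1 and 51.2 normalised CPM stood beside 44.3 in the vector, a change of 0.21 (adjusted p = 0.499). SREBF1 was at 195 in the vector, at 115.9 and 146.7 in the PIP4K2A line, at 93.2 and 111.9 in the PIP4K2B line and at 147.7 and 154.5 in the double line. It fell by 0.57 and 0.93 in the single lines. SREBF2 fell by 0.61 in the PIP4K2B line.

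In the sterol pathway itself, LSS (ENSG00000160285, chr21:46188141-46228824, minus strand), the lanosterol synthase that closes the sterol rings, was the gene furthest below the vector in the PIP4K2A line. It was at 149.5 normalised CPM in the vector, at 69.9 and 81.1 in the PIP4K2A line, at 73.6 and 75.4 in the PIP4K2B line and at 92.6 and 107.6 in the double line. Its changes were -0.99 (adjusted p = 0.00193), -1.0 (adjusted p = 0.00116) and -0.58 (adjusted p = 0.043), and no knockdown library reached the vector. In the PIP4K2B line mevalonate decarboxylase MVD (-0.80), MVK (-0.69), DHCR7 (-0.69) and SQLE (-0.59) fell as well, and FDFT1 fell in both single lines (-0.32 and -0.31). ACAT2 and HMGCS1 fell in the double line, by 0.66 (adjusted p = 0.00147) and 0.37, and their values in the single lines, which were not called, lay between -0.30 and -0.01. Set directly against the untreated PIP4K2A line, HMGCS1 in the double line differed by -0.06 (95% interval -0.24 to 0.11, adjusted p = 0.743). CYP51A1, TM7SF2, MSMO1 and SC5D, at 0.04 to 0.40, had values above 0 in all 3 lines and were not called.

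The fatty acid group had 4, 5 and 2 of its 7 genes lower. SCD fell by 0.84 (adjusted p = 0.00012), 1.01 (adjusted p = 1.66e-05) and 0.44 (adjusted p = 0.00971), that is 1.8-fold, 2.01-fold and 1.36-fold. FADS2 was at 325.9 normalised CPM in the vector, at 207.8 and 240.4 in the PIP4K2A line, at 179.4 and 189.1 in the PIP4K2B line and at 260.5 and 281.2 in the double line, and it fell in the single lines by 0.54 and 0.82. FADS1, at 262 in the vector and 174.5 and 176.1 in the PIP4K2B line, fell there by 0.58. ACACA, which makes malonyl-CoA, fell in all 3 lines (-0.36, -0.45 and -0.46), ELOVL6 in the PIP4K2A line (-0.52) and FASN in the PIP4K2B line (-0.59). LPIN1 fell in both single lines (-0.36 and -0.61).

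Without PIP4K2A replicate 1 the 9 calls became 3 (INSIG1, LSS and SCD). Without PIP4K2B replicate 1 the 15 became 9, and without double line replicate 1 or 2 the 5 became 1 and 2, of which ACAT2 was in both. The calls of ACACA in every knockdown line and of FDFT1 in the single lines were lost whichever knockdown library was left out. So were those of ELOVL6 and LPIN1 in the PIP4K2A line, of MVD in the PIP4K2B line, and of HMGCS1 and LSS in the double line. The vector library could not be left out.

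Some markers of cell lineage differed between the lines. The summed level of the 8 osteoblast markers was 1371 TPM in the untreated vector and 820.8 to 1086 in the untreated knockdown lines, and 909.1 to 977.7 and then 595 to 827 after UV. Of the 6 that were tested, SPARC was lower untreated in the PIP4K2A (-0.91) and double (-0.46) lines, and RUNX2 (-0.95) and COL1A1 (-1.23) in the PIP4K2B line. After UV 2 were lower in each line, and ALPL was higher in the PIP4K2A and double lines. The summed level of the 10 epithelial markers was 137.7 TPM in the untreated vector against 198.4 to 255.5 in the knockdown lines, and 119.9 to 131.2 against 225.8 to 432.6 after UV. Of the 8 tested, 2, 1 and 2 were higher and 1, 2 and 0 lower untreated (PIP4K2A, PIP4K2B, double). After UV 5, 2 and 3 were higher and 1, 3 and 1 lower. In the PIP4K2B line more were thus lower than higher, with CLDN4 and KRT14 lower under both treatments. Of all genes 3.71%, 5.26% and 3.24% were called higher and 4.13%, 4.99% and 2.96% lower untreated. The shares after UV were 11.3%, 10.7% and 8.5% higher and 9.01%, 8.3% and 6.86% lower. The keratin KRT8 was higher in each line, by 1.28, 1.13 and 1.35 untreated and by 1.70, 1.58 and 1.67 after UV. Each of these marker calls kept its sign under the other scalings, and their part in the differences of the 32 genes was not tested.

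After UV the same comparison has 2 libraries on each side and shares no library with the untreated one. Of the 32 genes 16 were lower in the PIP4K2A line, 14 in the PIP4K2B line and 8 in the double line, against 9.01%, 8.3% and 6.86% of all genes called lower (20.3%, 19% and 15.4% in either direction). Of all genes 11.3%, 10.7% and 8.5% were called higher, and of the 32 this held for 1, HSD17B7 in the double line (0.39, adjusted p = 0.0498). The members' medians were -0.30, -0.34 and -0.01. Of the genes called lower untreated, 8 of 9 (88.9%) in the PIP4K2A line, 12 of 15 (80%) in the PIP4K2B line and 5 of 5 (100%) in the double line were also lower after UV, which is 50%, 85.7% and 62.5% of the UV calls. How often this held over all genes was not counted, so the overlap is not shown to be particular to these 32. All calls of the 32 genes after UV kept their sign under the other scalings. With ribosomal protein genes 5 of 16, 13 of 14 and 5 of 8 lower calls were left, and in the PIP4K2A line 2 genes were then called higher. The higher and lower calls over all genes went at the same time from 2563 and 2035 to 4902 and 830 in the PIP4K2A line, from 2413 and 1875 to 1880 and 1498 in the PIP4K2B line, and from 1921 and 1550 to 2722 and 768 in the double line. With library totals the double line had 9 lower and none higher.

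INSIG1 was 2.23-fold lower in the PIP4K2A line and 2.14-fold lower in the PIP4K2B line than in the vector after UV (-1.16, adjusted p = 5.57e-05, and -1.10, adjusted p = 6.48e-05), and its change in the double line was 0.05 (adjusted p = 0.843). SCD fell by 0.90 (adjusted p = 7.9e-06), 1.03 (adjusted p = 1.73e-06) and 0.45 (adjusted p = 0.00119). LSS was at 148.6 and 162.5 normalised CPM in the vector, at 100.8 and 76.2 in the PIP4K2A line, at 92.0 and 83.8 in the PIP4K2B line and at 118.7 and 114.2 in the double line, with changes of -0.81, -0.82 and -0.42. FADS1 was at 352.8 and 372.4 in the vector and at 298.1 and 289.8, 218.3 and 223.7, and 293.5 and 288.5 in the lines, in the same order. FADS2 was at 404.9 and 440.6, then 303.9 and 265.5, 270.5 and 263.7, and 360.0 and 356.6. For both desaturases every knockdown library was below both vector libraries, and FADS1 was called in all 3 lines (-0.30, -0.71 and -0.32) and FADS2 in the single lines (-0.57 and -0.66). All 4 genes of sterol control were lower in the PIP4K2A line (SREBF1 -0.65, SREBF2 -0.39, SCAP -0.30), 3 in the PIP4K2B line (SREBF1 -0.56, SREBF2 -0.40) and none in the double line. SQLE, at 125.8 and 119.6 in the vector, was at 71.5 and 72.8 in the PIP4K2B line (-0.77) and at 113.1 and 103.7 in the PIP4K2A line (-0.18, not called).

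In the double line the lower genes after UV were ELOVL6 (-0.63), HMGCS1 (-0.60), ACAT2 (-0.53), ACACA (-0.52), SCD, LSS, LPIN1 (-0.36) and FADS1, and all 4 called fatty acid genes were lower in at least 1 single line as well. STARD4, a carrier of cholesterol between membranes, was at 91.4 and 72.9 in the vector and at 25.9 and 52.8 in the PIP4K2A line after UV (-1.06, adjusted p = 0.00756). Its 2 libraries there differed by 1.03 on the log2 scale. That group was the least even of all: 14 of the 32 genes differed by over 0.3 between its libraries, with a median of 0.24, against 6 genes and 0.19 in the untreated PIP4K2A line and medians of 0.04 to 0.09 in the other groups. Without vector UV replicate 1 or 2 the 16 calls in the PIP4K2A line became 9 and 7. The 8 lower and 1 higher calls in the double line became 5 calls without either vector or either double UV replicate, each time without HSD17B7. Kept throughout were SREBF1, INSIG1, LSS, ELOVL6, SCD and FADS2 in the PIP4K2A line, and ACAT2, HMGCS1, ACACA, ELOVL6 and SCD in the double line.

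**Figure D3:**
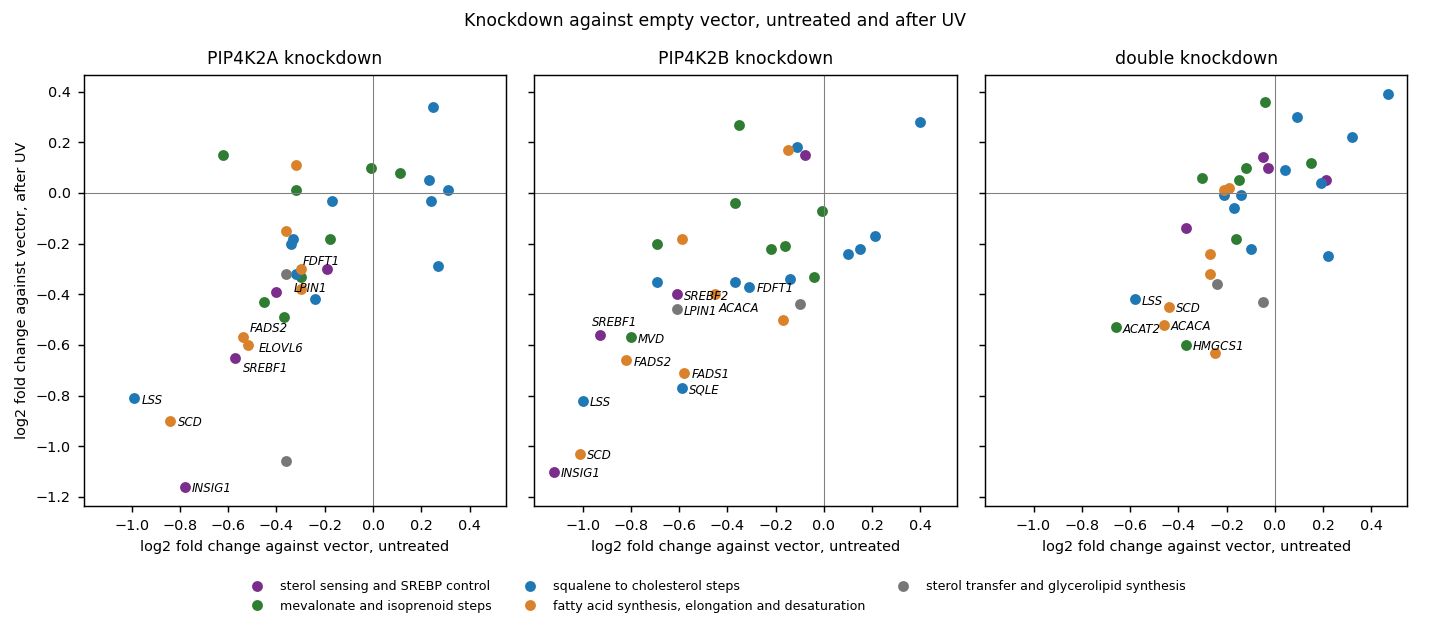
Log2 fold change of each knockdown line against the empty vector, untreated (x axis) and after UV (y axis); each point is 1 of the 32 genes, coloured by role, and names mark genes called in both. INSIG1, SCD and LSS lie at the lower left for both single knockdowns (INSIG1 at -1.12 and -1.10 in the PIP4K2B line), while INSIG1 in the double line is above 0 on both axes and uncalled.

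The third question, whether a knockdown altered the response to UV, was tested as the difference of the UV changes between a line and the vector. By edgeR's quasi-likelihood test none of the 32 differed in any of the 3 lines (0.00885%, 0% and 0.00885% of all genes called), DESeq2 also called none, and an unadjusted p under 0.05 was reached by 0, 2 and 1 genes. Those were MVK (0.49, 95% interval 0.09 to 0.89) and FASN (0.41, 0.06 to 0.76) in the PIP4K2B line and ELOVL6 in the double line (-0.38, -0.73 to -0.03). The intervals were wide: the difference for INSIG1 was -0.38 (-0.79 to 0.03) in the PIP4K2A line, 0.02 (-0.39 to 0.44) in the PIP4K2B line and -0.16 (-0.56 to 0.25) in the double line. For SCD it was -0.06 (-0.30 to 0.19), -0.02 (-0.27 to 0.23) and -0.01 (-0.26 to 0.24). The median half-width over the 32 genes was 0.4 to 0.41 before any adjustment for the number of genes tested, and a call needed more. PIP4K2A itself differed by -0.93 in its own line (adjusted p = 0.138) and by -1.03 in the double line (adjusted p = 0.0682), uncalled. Differences of that size in the 32 genes could therefore have gone uncalled. Without PIP4K2A UV replicate 2, 6 genes were called in the PIP4K2A line: STARD4 (-1.31), INSIG1 (-0.63), MSMO1 (-0.63) and SC5D (-0.62) below 0, ACLY (0.65) and FDPS (0.59) above. Of all genes 8.28% were called in that fit, 1037 above 0 and 829 below. Those calls rest on a single UV library of that line.

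The fourth question was how the double knockdown differed from each single one. INSIG1 was higher in the double line in all 4 comparisons, by 0.99 (adjusted p = 0.0003) against the PIP4K2A line and 1.33 (adjusted p = 1.42e-05) against the PIP4K2B line untreated, and by 1.21 (adjusted p = 5.67e-05) and 1.15 (adjusted p = 4.64e-05) after UV. That is 1.98-fold to 2.51-fold, and no library of the double line overlapped one of a single line. ACAT2 was lower in all 4 (-0.65, -0.49, -0.63 and -0.31). The comparisons within a treatment share the double line's libraries. Against the PIP4K2A line 3 genes were higher and 1 lower untreated (7.1% of all genes called) and 12 and 3 after UV (19.5%). Against the PIP4K2B line 14 were higher and 2 lower untreated (15.4%) and 12 and 2 after UV (17.7%). In that order, 3.53%, 9.81%, 7.32% and 8.64% of all genes were called higher and 3.57%, 9.71%, 8.06% and 9.09% lower.

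SCD was higher in all 4 comparisons (0.40, 0.57, 0.45 and 0.58 against the PIP4K2A and PIP4K2B lines, untreated and then after UV), and so was SREBF2 (0.37, 0.58, 0.49 and 0.50). SREBF1 was higher in 3 of them, by 0.42 to 0.56. LSS was higher by 0.40 to 0.43 in the same 3, and FADS2 by 0.33 to 0.56. Against the PIP4K2B line, SQLE (0.49 and 0.55), MVD (0.68 and 0.67) and the sterol reductase HSD17B7 (0.61 and 0.73) were higher under both treatments, and the isomerase IDI1 after UV (0.45). HMGCS1 was lower in 3 of the 4 (-0.36, -0.26 and -0.53), and ACACA was lower against the PIP4K2A line after UV (-0.37). All of these calls kept their sign under every scaling. With ribosomal protein genes the counts against the PIP4K2B line were 14 and 0 untreated and 15 and 1 after UV. Against the PIP4K2A line after UV they were 8 and 3, and 7 and 3 with library totals.

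Single libraries moved these counts too. The 4 calls against the PIP4K2A line untreated became 2 (INSIG1 and ACAT2) without double line replicate 2. The 16 against the PIP4K2B line untreated became 7 without its replicate 1 and 9 without double line replicate 2. After UV, the 15 against the PIP4K2A line became 6 without either double line replicate, and the 14 against the PIP4K2B line became 7 without double line replicate 1 or PIP4K2B replicate 2, and 9 without double line replicate 2 or PIP4K2B replicate 1. INSIG1 was called in all of these fits. Other genes named above were not. LSS lost its call against the PIP4K2B line, under either treatment, whichever library was left out. The same held for ACAT2, SREBF1 and IDI1 against the PIP4K2B line after UV. Under both treatments SREBF2, INSIG1, SQLE, HSD17B7 and SCD kept their calls against that line in every fit. SREBF2 against the PIP4K2A line untreated was kept only without PIP4K2A replicate 2.

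**Figure D4:**
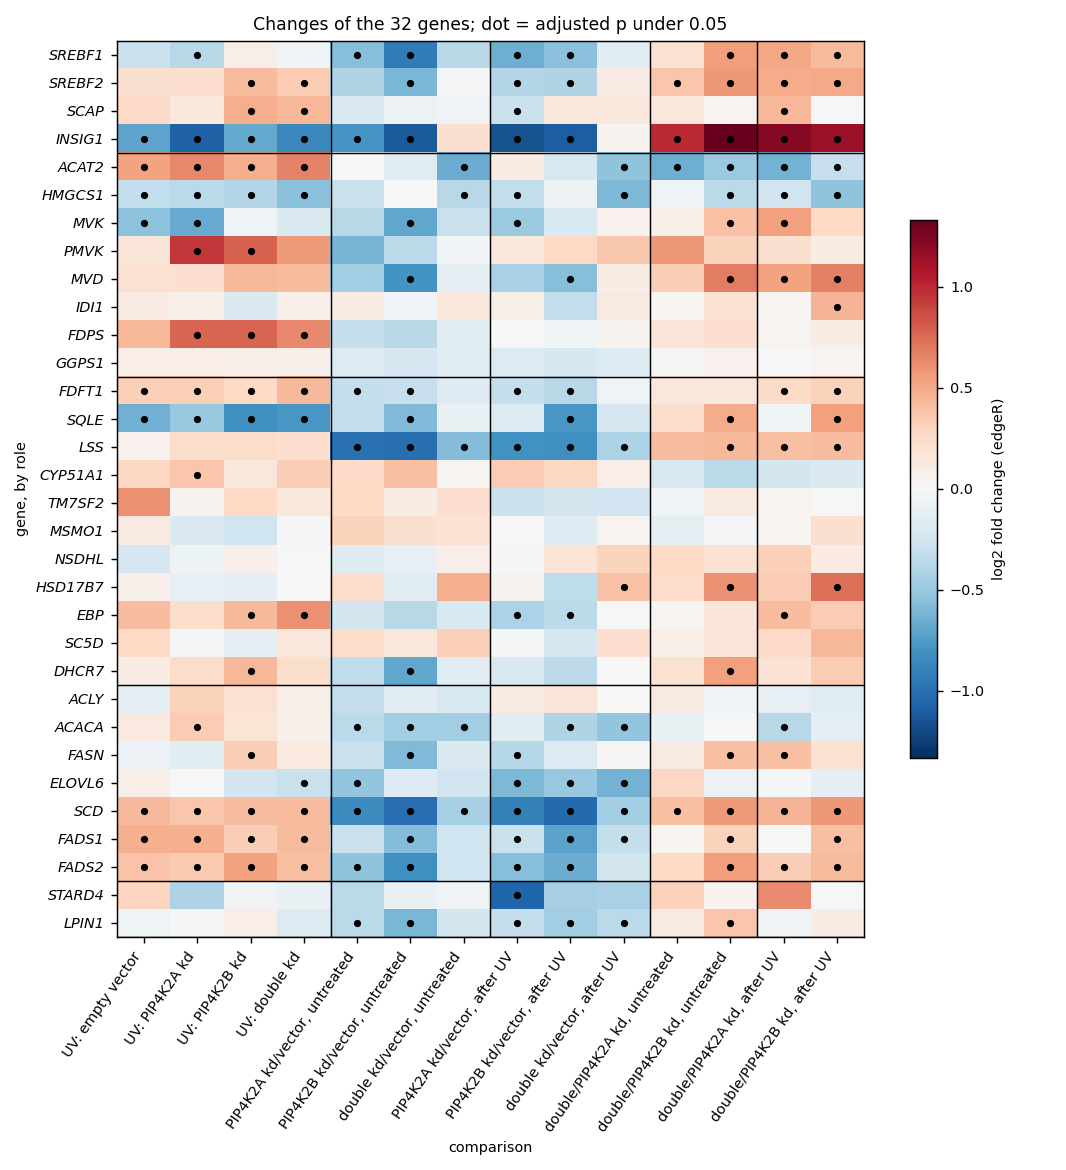
Log2 fold change (colour, red higher, blue lower) of the 32 genes (rows, by role) in 14 comparisons (columns; kd, knockdown); a dot marks an adjusted p under 0.05. INSIG1 is blue after UV and in both single knockdowns and red in the double line against each single line, ACAT2 is blue in the 6 columns that set the double line against another line, and the dotted red cells of the UV columns turn below 0 with ribosomal protein gene scaling for all but PMVK in the PIP4K2A line.

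Summed over the 32 genes, the level was 5281 normalised CPM in the untreated vector, 4413 and 4603 in the double line, 3841 and 4150 in the PIP4K2A line and 3678 and 3608 in the PIP4K2B line. After UV it was 5771 and 5854, 5190 and 5161, 4487 and 4293, and 4374 and 4276. The lines did not overlap untreated, and after UV the 2 single lines overlapped each other but not the double line or the vector. Most of the sum came from the fatty acid genes, which made up 3151 in the untreated vector, 1996 to 2035 in the untreated PIP4K2B line and 3567 to 3637 in the vector after UV. Over the 17 comparisons SCD was called in 14, INSIG1 in 12 and FADS2 in 11. GGPS1, TM7SF2, MSMO1, NSDHL, SC5D and ACLY were called in none.

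Of 15 other genes of sterol sensing, transport and efflux, 1, 0 and 1 were higher and 1, 1 and 1 lower in the untreated PIP4K2A, PIP4K2B and double lines. Of all genes 7.84%, 10.2% and 6.2% were called there in either direction. The lower one of the list was NPC1, which exports cholesterol from lysosomes, at -0.75 (adjusted p = 0.000635), -0.67 (adjusted p = 0.000888) and -0.56 (adjusted p = 0.00506). NPC1 was lower after UV as well (-0.58, -0.51 and -0.40). After UV itself this list had 2 to 4 genes higher and 4 or 5 lower, beside 8.67 to 19.1% of all genes higher and 9.82 to 16.1% lower, among the latter the cholesterol exporter ABCA1 in the vector (-1.14) and INSIG2, the paralogue of INSIG1, in the double line (-1.14). Of 18 other tested genes of fatty acid elongation, desaturation and activation, 5, 6, 8 and 9 rose after UV on the TMM scale (vector, PIP4K2A, PIP4K2B, double). Of all genes 8.67%, 16.6%, 17.5% and 19.1% were called higher there. None of the 28 calls of this list kept its direction with ribosomal protein genes. SCD5, the second human stearoyl-CoA desaturase, was higher in the double line than in the vector untreated (1.19, adjusted p = 0.000637) and after UV (1.14, adjusted p = 6.15e-05), where SCD was lower. In the single lines SCD5 was between -0.08 and 0.21 and not called. Of 15 genes of the isoprenoid branches, at most 2 were called in any comparison of a knockdown line with the vector. Of all genes 6.2% to 20.3% were called in those comparisons.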

How the data were processed

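Per the submitters' processing notes, STAR, SAMtools and RSEM were used with GRCh38. No version, annotation release or strand setting is given in the sources used here. The authors deposited RSEM expected counts, gene lengths and TPM per library for 60666 genes. Symbols came with the deposited identifiers, and positions from GENCODE 29. Expected counts were rounded to whole numbers and fitted in edgeR 4.0.16 (R 4.3.3), with TMM factors, a minimum count of 10, 1 term per group and 15 libraries, leaving 22597 genes. Calls needed a Benjamini-Hochberg adjusted p under 0.05 over all genes in the quasi-likelihood test. Intervals at 95% use the t distribution. Members, lists and comparisons were chosen with earlier results of these data known. Within each comparison, up to 5 called members per direction were to be named, 8 members by library, and from each other list at most 2 called genes per family of comparisons; the library total scaling, the CACNCCAC core and genes named outside that rule were added after seeing values. DESeq2 1.42.0 and other scalings were alternatives. On simulated counts for the untreated double line against the vector, 38.5% of 2-fold changes were recovered, with 9 false calls among 21659 genes. One gene that the naming rule picked from another list is not reported here.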

Additional observations from a re-analysis of the deposited data

How the results depend on the processing

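The counts below are of the 32 genes called in either direction. Of 123 calls of named genes in single comparisons, 122 held with DESeq2, 118 with RLE size factors, 112 with no filter on low counts, 110 with the replicate block and 92 with library totals, and none of these but the last changed a sign, for FDFT1 after UV in the PIP4K2B line (-0.04); in the other cases the cause was not tested. The 2 members most limited by depth, PMVK and TM7SF2, lay under 9 normalised CPM in every library.

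With all 16 libraries the count was 0 in each UV, knockdown and double against single comparison. Of the 123 named calls 11 turned sign. After UV in the vector they were HMGCS1 0.12 and SQLE 0.12. In the untreated PIP4K2A line they were SREBF1 0.29, FDFT1 0.46 and FADS2 0.24. In the untreated PIP4K2B line they were FDFT1 0.46 and FADS1 0.11. In the untreated double line they were HMGCS1 0.12, LSS 0.24, ACACA 0.42 and SCD 0.33. With ribosomal protein gene scaling the UV counts were 21, 28, 30 and 28 (vector, PIP4K2A, PIP4K2B, double), the untreated counts against the vector 2, 9 and 0, and the PIP4K2A count after UV 7. Of the 123 named calls 27 turned, all of them UV changes. In the vector they were ACAT2 -0.19, FDFT1 -0.40, SCD -0.30, FADS1 -0.26 and FADS2 -0.35. In the PIP4K2A line they were ACAT2 -0.16, FDPS -0.05, FDFT1 -0.47, SCD -0.43, FADS1 -0.34 and FADS2 -0.46. In the PIP4K2B line they were SCAP -0.43, ACAT2 -0.43, PMVK -0.13, FDPS -0.14, FDFT1 -0.64, SCD -0.50, FADS1 -0.57 and FADS2 -0.37. In the double line they were SCAP -0.44, ACAT2 -0.21, FDPS -0.23, FDFT1 -0.45, EBP -0.27, SCD -0.46, FADS1 -0.45 and FADS2 -0.47. Rises outside the named calls turned as well. They were CYP51A1 and ACACA in the PIP4K2A line, SREBF2, EBP, DHCR7 and FASN in the PIP4K2B line, and SREBF2 in the double line.

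When only the libraries of the groups compared were fitted, which leaves fewer samples to estimate the spread, the UV counts were 15 (vector), 1 (PIP4K2A) and 20 (double), the untreated counts against the vector 5 (PIP4K2A) and 8 (double), those after UV 2, 23 and 16, and those of the double line against the PIP4K2A and PIP4K2B lines after UV 1 and 23. With no filter 1 gene, STARD4, was called in the difference of UV responses in the PIP4K2A line. No pairing by replicate number common to all groups was seen. Over 21 pairs of groups the correlation of deviations was -0.325 to 0.583 (median -0.008), over 0.1 in 6 pairs and under -0.1 in 6. Deviations shared by some of the groups are therefore not excluded. With the replicate block the untreated counts against the vector were 5 in the PIP4K2A line and 3 in the double line, and no other count moved by over 1.5 times.

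Leaving out 1 library in turn gave UV counts of 5 to 6, 11 to 20, 9 to 14 and 9 to 12 (vector, PIP4K2A, PIP4K2B, double). Against the vector they were 3 to 7, 9 to 12 and 1 to 2 untreated, and 7 to 21, 10 to 11 and 5 to 5 after UV (PIP4K2A, PIP4K2B, double). For the differences of UV responses they were 0 to 6, 0 to 0 and 0 to 0. For the double against the PIP4K2A and PIP4K2B lines they were 2 to 4 and 7 to 12 untreated, and 6 to 18 and 7 to 9 after UV. Of 438 named calls in these fits 106 were lost and none turned.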

Other observations

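Fatty acid oxidation genes, which work in the opposite direction to the pathway above, were read from a list of 14. CPT1A, which admits long-chain fatty acids to mitochondria, was lower than the vector in the untreated PIP4K2A line (-1.64, adjusted p = 0.00826) and after UV in the PIP4K2A, PIP4K2B and double lines (-1.40, -0.93 and -1.93, adjusted p = 0.000602 for the last). Its untreated values in the PIP4K2B and double lines were -0.67 and -1.11 and were not called. PPARA, a nuclear receptor that activates oxidation genes, was higher in the double line untreated (0.62) and after UV (0.83). Over the list, 0, 1 and 2 genes were higher and 1, 0 and 0 lower in the untreated PIP4K2A, PIP4K2B and double lines, where 7.84%, 10.2% and 6.2% of all genes were called. After UV 2, 0 and 2 were higher and 2, 1 and 1 lower, where 20.3%, 19% and 15.4% of all genes were called. Each of these calls kept its sign under the other scalings.

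Of 11 other glycerolipid genes, LPIN2, a phosphatidate phosphatase like LPIN1, was higher than the vector in the PIP4K2B line untreated (0.68, adjusted p = 0.000538) and after UV (0.76, adjusted p = 1.97e-05), where LPIN1 was lower. LPIN2 was also higher in the PIP4K2A line (0.45 and 0.57), and its values in the double line were 0.07 and -0.06. LPIN3 was lower in the PIP4K2B line (-1.05 and -0.78). The mean transcript length RSEM assigned to LPIN1 was 4284 to 4815 bases over the untreated libraries and 4874 to 5168 after UV, the only gene of the 32 whose ranges did not overlap. How many of all genes had such ranges was not counted, so this is not shown to be unusual.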
